A study of Mus musculus with 4 samples.

Results

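The potassium channel genes of the developing mouse superior colliculus were followed here across cell classes, neuronal subtypes and ages. Members were all genes whose symbol begins with Kcn, followed by letters and a final number, which gave 92 of the 31053 genes counted, and every one of them was found in the GENCODE M21 annotation of the GRCm38 (mm10) mouse genome. By symbol they fell into 17 voltage-gated pore subunits (Kcna, Kcnb, Kcnc and Kcnd), 10 modifier subunits (Kcnf, Kcng, Kcns and Kcnv), 5 Kv7 pores (Kcnq), 8 ether-a-go-go pores (Kcnh), 15 auxiliary subunits (Kcnab, Kcne, Kcnip and Kcnmb), 8 calcium- and sodium-activated pores (Kcnma, Kcnn, Kcnt and Kcnu), 15 inward rectifiers (Kcnj) and 14 two-pore-domain channels (Kcnk).

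The study sequenced single nuclei of superior colliculus from C57BL/6J mice at embryonic day 19 (E19) and at postnatal days 4, 8 and 21 (P4, P8 and P21), with 1 library per stage. No genotype or treatment was named for any library, and although the design text once abbreviates the embryonic stage differently, the sample labels say E19. Tissue of several animals was pooled in each library (their number and sex are not known here), so the spread between animals is not measured and a difference between stages cannot be told apart from a difference between libraries. The 4 libraries held 9724 nuclei in 9 classes and 35 subtypes that the authors had assigned, and 13 of these subtypes were excitatory and 12 inhibitory. No difference below therefore has a test: levels are unique molecular identifiers (UMIs, counted molecules) of a class in a library per 1000000 UMIs of that class and library, written CPM, and their 95% intervals are exact Poisson intervals that cover counting error only.

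The libraries held 2585, 2386, 2504 and 2249 nuclei at E19, P4, P8 and P21, with median depths of 6828, 9045, 9672 and 11745 UMIs per nucleus. Excitatory neurons numbered 682 to 1338 and inhibitory neurons 738 to 1088 per library. Among the barcodes, 9 occurred in 2 libraries (18 nuclei). Marker genes went with most class names: the vesicular glutamate transporter Slc17a6 was at 176 to 286 CPM in excitatory and 8.32 to 46.3 CPM in inhibitory neurons, while Slc32a1, Gad1 and Gad2 summed to 680 to 950 CPM in inhibitory and 34.6 to 58.6 CPM in excitatory neurons. The nuclei labelled epithelial went against their name, since Ttr, Foxj1 and Folr1 summed to 0 to 111 CPM there and Folr1 was at 0 in all 4 libraries. The leptomeningeal markers Dcn, Col1a1, Col1a2 and Lum summed to 638 to 1083 CPM there, against 1282 to 3364 CPM in leptomeningeal cells. Astrocyte markers summed to 702 to 1293 CPM in the same nuclei, against 1893 to 5798 CPM in astrocytes, so these lists do not name their class. The nuclei labelled endothelial held 1627 to 2280 CPM of the mural cell markers Pdgfrb, Rgs5 and Vtn beside 3579 to 7255 CPM of endothelial markers.

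Potassium channels let potassium leave the cell down its gradient and so set the resting potential, shape the action potential and limit repetitive firing. Voltage-gated pores open on depolarization, calcium- and sodium-activated pores open when those ions enter, inward rectifiers and two-pore-domain channels act near rest, and auxiliary subunits bind pores and alter their gating or transport. In the superior colliculus, which receives retinal axons in its upper layers and sends commands to motor centres from its deeper layers, these channels contribute to the different firing patterns of its neurons, and in astrocytes inward rectifiers take up potassium released by active neurons.

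What pore subunits share at the level of the gene is the stretch of coding sequence for the selectivity filter, the narrow part of the pore that lets potassium pass. Its pattern was taken as 5 codons in direct succession: one with C in the middle, one with T in the middle, one starting with GG, one starting with T, and one starting with GG. It was searched in frame, on the coding strand only, in the longest coding sequence of each gene; it was chosen with the members known and is a description of the set. It occurred in 68 of the 92 members (73.9%) against 617 of 21504 protein-coding genes (2.87%). All 17 voltage-gated pores, 10 modifiers, 5 Kv7 pores, 8 activated pores and 15 inward rectifiers held it, none of the 15 auxiliary subunits did, and 11 of the 14 two-pore-domain genes held it at 2 places. Of the 8 ether-a-go-go genes only Kcnh5 held it, which says only that these letters are not in the other coding sequences. The following 45-base stretches, 5′ to 3′ on the coding strand, are shown for pores on which the results below turn, with the matched bases in capitals.
Kcna1: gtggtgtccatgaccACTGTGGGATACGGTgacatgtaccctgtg
Kcna2: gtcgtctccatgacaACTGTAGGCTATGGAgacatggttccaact
Kcnc1: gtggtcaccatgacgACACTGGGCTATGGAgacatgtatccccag
Kcnc2: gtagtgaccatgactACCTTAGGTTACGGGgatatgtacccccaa
Kcnd2: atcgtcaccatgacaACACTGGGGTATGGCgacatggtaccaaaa
Kcnd3: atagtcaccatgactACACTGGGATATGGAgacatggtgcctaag
Kcnh5: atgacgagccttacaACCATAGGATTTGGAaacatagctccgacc
Kcnj3: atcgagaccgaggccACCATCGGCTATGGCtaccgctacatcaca
Kcnj9: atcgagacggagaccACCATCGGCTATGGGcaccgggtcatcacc
Kcnk10, first match: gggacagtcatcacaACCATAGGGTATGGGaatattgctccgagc
Kcnk10, second match: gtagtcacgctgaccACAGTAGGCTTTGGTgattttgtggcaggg

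The stretch lay within 1 coding exon in Kcna1 (chr6:126642213-126642257, minus strand), Kcna2 (chr3:107105209-107105253, plus strand) and Kcnj3 (chr2:55437612-55437656, plus strand), and was split by an intron in Kcnd2, Kcnd3 and Kcnk10. Kcna1 and Kcna2, the Kcna to Kcnd pores with the largest log2 ratios from E19 to P21, matched at 31 of 45 bases. Kcnd2 and Kcnd3 matched at 38, Kcnj3 and Kcnj9 at 37, Kcnc1 and Kcnc2 at 33, Kcna1 and Kcnc1 also at 33, and Kcna2 and Kcnj9 at 25 of 45 bases.

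Potassium channel genes made up a larger share of the RNA of excitatory neurons at the later ages. Summed over the 92 members, the level was 14404, 16573, 19431 and 20636 CPM in excitatory neurons at E19, P4, P8 and P21, and 12523, 14334, 15677 and 15501 CPM in inhibitory neurons. One gene, Kcnip4, carried much of this: without it the sums were 11562, 12811, 13046 and 12441 CPM in excitatory and 10376, 11152, 11969 and 10708 CPM in inhibitory neurons, with the highest value at P8 in both. Of the 92 members, 45 reached 20 CPM in at least 1 neuron class and stage, 32 stayed below 5 CPM in both neuron classes throughout, and Kcna7 had no UMI in any nucleus. All 10 modifier subunits, which form no channel alone, stayed below 20 CPM in neurons. Another 11 members reached 20 CPM only outside neurons, and 5 of these were inward rectifiers.

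Because intronic reads were counted, long genes gather more UMIs, and levels are compared between genes only per kilobase of gene. On that scale Kcnd2, the pore of the fast inactivating A-type current, led in neurons at 4.92 CPM per kb (mean of the 4 libraries over all neurons). Further members stood at high levels, among them Kcnip4 at 3.98, Kcna1 at 3.75, Kcnb2 at 3.12 and Kcnc2 at 3.04 CPM per kb. The leading members of 5 other families were Kcnj9 at 1.93, Kcnh7 at 1.65, Kcnma1 at 1.57, Kcnk10 at 1.21 and the modifier Kcns2 at 0.89 CPM per kb.

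From E19 to P21, more members were 2-fold higher than 2-fold lower in both neuron classes. A member counted as 2-fold higher or lower when the log2 ratio of CPM, with 5 CPM added to each value, was at least 1 or at most -1 and the higher stage had 20 CPM or more. In excitatory neurons 10 of the 43 members that reached 20 CPM at either stage were higher at P21 (23.3%), against 5.35% of all genes, and 5 were lower (11.6%), against 10.7% of all genes. In inhibitory neurons 11 of 43 were higher (25.6%), against 5.83% of all genes, and 4 were lower (9.30%), against 11.3%. The same 9 members were higher in both classes and the same 3 lower in both, of 42 tested in both; 4.23% and 9.01% of all genes were. Both classes come from the same 2 libraries, so these counts are not independent. Over the members with a mean of 20 CPM or more, the median log2 ratio was 0.13 in excitatory (40 members) and 0.14 in inhibitory neurons (37 members), beside -0.045 and -0.027 over all such genes.

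**Figure D1:**
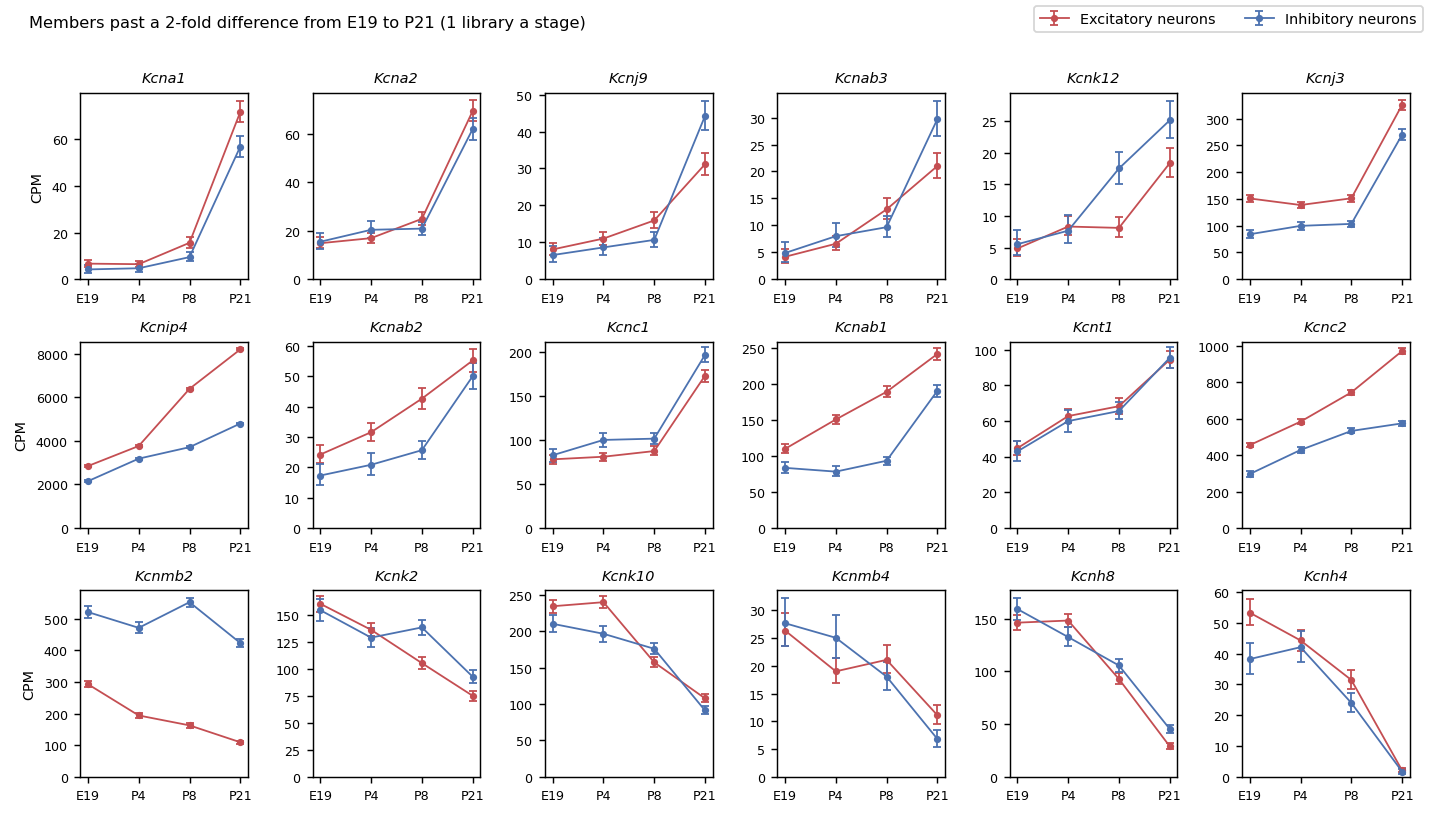
CPM at each stage (evenly spaced on the x axis) of the 18 members that were 2-fold higher or lower at P21 than at E19 in at least 1 neuron class. Points are 1 library each and bars are exact Poisson 95% intervals; in Kcna1, Kcna2, Kcnj3, Kcnj9 and Kcnc1 the P21 point stands well above the other 3 in both classes.

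The members that reached 2-fold within a single step did so between P8 and P21. No member differed 2-fold from E19 to P4 (0.472% of all genes were higher and 0.701% lower in excitatory, 0.436% and 0.582% in inhibitory neurons) or from P4 to P8 (0.361% and 0.832%, and 0.136% and 0.382%). From P8 to P21, Kcna1, Kcna2 and Kcnj3 were 2-fold higher in excitatory neurons (3 of 43 members; 2.15% of all genes), and the same 3 with Kcnj9 and Kcnab3 in inhibitory neurons (5 of 42; 2.62%). Kcnh4 and Kcnh8 were 2-fold lower in both classes (3.2% and 3.28% of all genes were lower). Kcnn3, a small-conductance calcium-activated pore, had log2 ratios of -1.0013 in excitatory and -0.9992 in inhibitory neurons, on either side of the threshold. The interval from P8 to P21 is also the longest between libraries.

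The low-threshold pores Kcna1 and Kcna2, which sit on axons and oppose repetitive firing, had the 2 largest log2 ratios of P21 over E19 in excitatory neurons, and Kcna1 had the largest in inhibitory neurons. Kcna1 (chr6:126640397-126646384, minus strand) stood at 6.68, 6.45, 15.6 and 71.8 CPM in excitatory neurons at E19, P4, P8 and P21, and at 4.19, 4.70, 9.48 and 56.9 CPM in inhibitory neurons. Its log2 ratio from E19 to P21 was 2.72 and 2.75, and the P21 interval in excitatory neurons (67.5 to 76.2 CPM) lay far above that at P8 (13.6 to 17.9 CPM). The levels before birth and at P4 could not be separated within counting error, so the gene was low and flat until P4, higher at P8 and highest at P21.

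Kcna2 (chr3:107101146-107115005, plus strand) started higher and was also highest at P21, at 14.8, 16.9, 24.9 and 69.3 CPM in excitatory and 15.4, 20.4, 20.8 and 61.8 CPM in inhibitory neurons. Its log2 ratios from E19 to P21 were 1.91 and 1.71. From P4 to P8 Kcna2 was level in inhibitory neurons (log2 0.028), where Kcna1 was higher (log2 0.58). All 3 cytoplasmic subunits that bind these pores were also 2-fold higher at P21 in both classes. Kcnab3 stood at 4.16, 6.58, 12.96 and 21.02 CPM in excitatory and 4.86, 7.98, 9.66 and 29.7 CPM in inhibitory neurons, Kcnab2 at 24.2, 31.6, 42.6 and 55.2 CPM in excitatory and 17.3, 20.8, 25.6 and 49.99 CPM in inhibitory neurons, and Kcnab1 at 109.9, 151, 189 and 242 CPM in excitatory and 83.5, 78.3, 93.4 and 191 CPM in inhibitory neurons. The stages of Kcnab1 differ in shape between the classes: in inhibitory neurons it was level until P8, and in excitatory neurons each stage was above the one before. Kcnab3 overlaps its antisense gene Kcnab3os, and Kcnab1 and Kcnab2 also overlap other genes on the opposite strand; how strand entered the counting is not known here, so reads of such partners may be shared.

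Oligodendrocytes also hold Kcna1, at 231 CPM in the lineage at P21, and their RNA was present among the neuronal UMIs. The 5 listed markers of the oligodendrocyte lineage summed to 55.5 to 232 CPM over the libraries in excitatory neurons, with the highest sum at P21, against 2066 to 15389 CPM in the lineage itself. The myelin gene Mbp stood at 35.5 CPM in excitatory neurons at E19 and 68.5 CPM at P21, at 32.04 and 71.1 CPM in inhibitory neurons, and at 7349 CPM in the lineage at P21. At P21 there were 3.14 UMIs of Kcna1 per 100 UMIs of Mbp in the oligodendrocyte lineage, against 105 in excitatory and 79.98 in inhibitory neurons. For Kcna2 the 3 ratios were 0.95, 101 and 86.9. The part of oligodendrocyte RNA in the neuronal levels was not tested.

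The Kv3 pores, which repolarize fast-spiking neurons, differed in their course. Kcnc1 (chr7:46396497-46438704, plus strand) stood at 77.9, 80.8, 87.3 and 173 CPM in excitatory and 82.5, 99.9, 101 and 196 CPM in inhibitory neurons, nearly level up to P8 and higher at P21 (log2 ratio from E19 of 1.10 and 1.20). Kcnc2 was higher at each later stage, at 455, 584, 744 and 971 CPM in excitatory and 296, 428, 533 and 574 CPM in inhibitory neurons, with log2 ratios of 1.09 and 0.94, so that only excitatory neurons passed 2-fold. Kcnc4 had log2 ratios of -0.21 and 0.040, far below 2-fold.

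The other voltage-gated pores did not differ 2-fold with age. Kcnd2 stood at 2383, 2780.4, 2609.7 and 2461 CPM in excitatory and 2314, 2474, 2711 and 2375 CPM in inhibitory neurons. Kcnd3, which carries the same type of current, stood at 355, 418, 562 and 572 CPM in excitatory and 303, 330.0, 331 and 321 CPM in inhibitory neurons (log2 0.68 and 0.083). The slow delayed rectifier Kcnb2 went from 1400 CPM at E19 to 1537 CPM at P21 in excitatory and from 1279 to 898 CPM in inhibitory neurons.

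Kcnip4, a calcium-binding partner of the Kcnd pores and the member with most UMIs, lies at chr5:48389502-49524907, minus strand. It stood at 2842, 3762, 6385 and 8195 CPM in excitatory and 2147, 3181, 3708 and 4793 CPM in inhibitory neurons, higher at each later stage in both (log2 1.53 and 1.16). Its relatives did not share this course: Kcnip1 had log2 ratios of -0.74 and -0.062, and Kcnip3 of 0.019 and 0.60. The 2 genes overlapping Kcnip4 lie on the other strand.

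Among the inward rectifiers, 2 of the 3 G-protein-gated subunits found in neurons were 2-fold higher at P21 in both classes. These channels open when transmitters act on inhibitory G-protein-coupled receptors. Kcnj3 stood at 151, 139, 151 and 326 CPM in excitatory and 84.04, 99.7, 103 and 270.2 CPM in inhibitory neurons, nearly flat until P8 and then higher (log2 1.09 and 1.63). Kcnj9 (chr1:172320501-172329318, minus strand) stood at 8.06, 11.01, 15.9 and 31.2 CPM in excitatory and 6.54, 8.61, 10.6 and 44.2 CPM in inhibitory neurons (log2 1.47 and 2.09). Kcnj6, the third subunit, was at 158, 204, 208 and 176 CPM in excitatory and 76.5, 80.3, 77.8 and 85.4 CPM in inhibitory neurons with no such difference (log2 0.15 and 0.15).

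In inhibitory neurons 2 further members passed 2-fold. Kcnk12, a two-pore-domain subunit, stood at 5.54, 7.67, 17.5 and 25.1 CPM (log2 1.52); in excitatory neurons its log2 ratio was 1.24, but its 18.3 CPM at P21 lay below the minimum of 20 CPM. The sodium-activated pore Kcnt1 had a log2 ratio of 1.07 in inhibitory and 1.00 (just under the threshold) in excitatory neurons.

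The members lower at P21 were led by the ELK-type ether-a-go-go pores, which open at subthreshold potentials. Kcnh4 (chr11:100740376-100759942, minus strand) stood at 53.3, 44.3, 31.5 and 2.05 CPM in excitatory and 38.2, 42.1, 24.00 and 1.68 CPM in inhibitory neurons, with 30 and 19 UMIs left at P21 (log2 -3.05 and -2.69). Kcnh8 stood at 146, 148, 92.6 and 28.8 CPM in excitatory and 159, 132, 105 and 45.3 CPM in inhibitory neurons (log2 -2.16 and -1.71). The other measured members of the family, Kcnh1, Kcnh5 and Kcnh7, did not differ 2-fold.

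The mechanically and thermally sensitive two-pore-domain channels Kcnk2 and Kcnk10 were lower as well. Kcnk10 stood at 234, 240.1, 157 and 108 CPM in excitatory and 210.4, 197, 176 and 91.1 CPM in inhibitory neurons (log2 -1.09 and -1.16), and Kcnk2 at 161, 137, 106 and 75.2 CPM in excitatory and 155, 129, 139 and 92.98 CPM in inhibitory neurons (log2 -1.05 and -0.71). Both lost the 2-fold mark in excitatory neurons with subtypes weighted alike and under median-of-ratios scaling, which moved the median log2 ratio of all genes from -0.045 to 0.061 there and from -0.027 to 0.076 in inhibitory neurons. The accessory subunits of the large-conductance calcium-activated channel were lower at different paces. Kcnmb2 was lower in excitatory neurons alone past 2-fold (log2 -1.38 and -0.30), and Kcnmb4 in inhibitory neurons alone (log2 -0.96 and -1.47), while their pore Kcnma1 stood at 1047, 1363, 1186 and 1125 CPM in excitatory and 966, 1031, 1157 and 1067 CPM in inhibitory neurons. The difference of these ratios between the classes was not tested.

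No member of the Kv7 family, which carries the slow M-type current, differed 2-fold with age, with 4 of 5 measured. Kcnq3 stood at 667, 781, 657 and 558 CPM in excitatory and 685, 819, 1055 and 732 CPM in inhibitory neurons, and Kcnq5 at 703, 936, 1001 and 778 CPM in excitatory and 289, 548, 429 and 247 CPM in inhibitory neurons. Both pores were lower at P21 than at P8 in each class. The small-conductance calcium-activated pore Kcnn2 likewise stayed within 2-fold, at 339.7, 376, 446 and 371 CPM in excitatory and 351, 415, 512 and 471 CPM in inhibitory neurons.

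**Figure D2:**
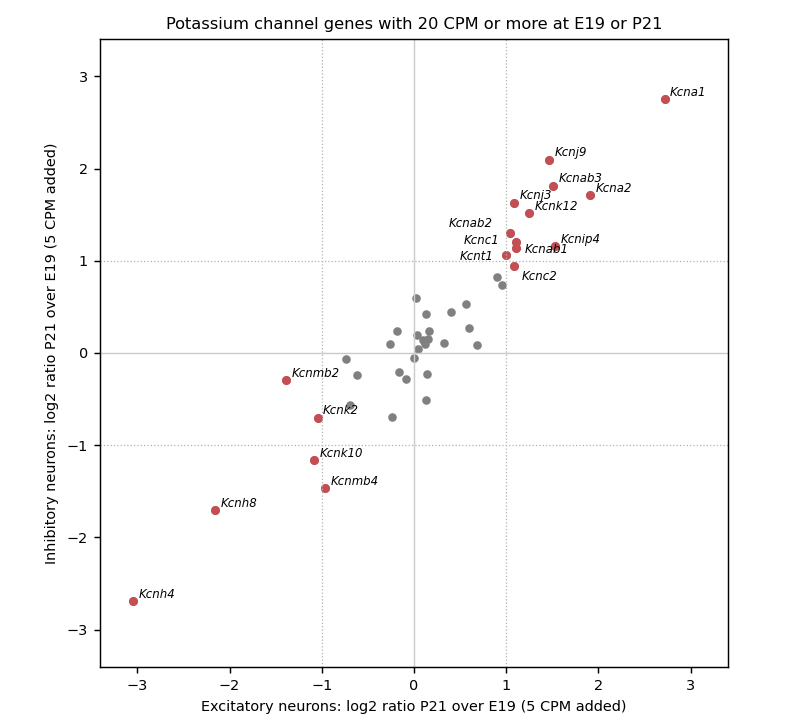
log2 ratio of P21 over E19 (5 CPM added) in excitatory (x) and inhibitory neurons (y) for members with 20 CPM or more at either stage in either class; dotted lines mark -1 and 1, and members past them in at least 1 class are red and named. The named members lie in the upper right and lower left, and none is past 2-fold in opposite directions.

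Genes that interact with these channels under other names were listed too, and 25 of them were in the matrix. Of 16 tested in excitatory neurons, 0 were 2-fold higher and 1 lower at P21; of 16 in inhibitory neurons, 1 was higher and 1 lower. The lower one in both was the calmodulin gene Calm3, at 83.3, 83.1, 48.7 and 28.2 CPM in excitatory neurons (log2 -1.41 and -1.55). Dpp6 and Dpp10, which join the Kcnd pores, had log2 ratios of 0.040 and -0.21 in excitatory neurons, and Cntnap2, which clusters Kcna pores on myelinated axons, of 0.54.

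Excitatory and inhibitory neurons differed in the same direction in every library for most members, by small steps. Of 35 members with 20 CPM or more in the higher class of each library, 19 (54.3%) lay on the excitatory side in every library, against 17.1% of all genes, and 6 (17.1%) lay on the inhibitory side in every library, against 31.9%. With median-of-ratios scaling the counts were 21 and 5 of 34, against 24.1% and 22.2% of all genes. With subtypes weighted alike they were 14 and 6 of 32, against 17.4% and 32.6% of all genes. The classes were drawn from the expression of these nuclei, so the comparison is a description.

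Only Kcnh5 was at least 2-fold higher in excitatory neurons in all 4 libraries (1 of 35 members; 0.579% of all genes), and no member was so in inhibitory neurons (0.547%). Kcnh5, an ether-a-go-go pore that passes a non-inactivating current, lies at chr12:74897220-75177332, minus strand, and stood at 123, 72.98, 114 and 164 CPM in excitatory and 52.5, 30.2, 45.6 and 73.4 CPM in inhibitory neurons at E19, P4, P8 and P21 (log2 1.16, 1.15, 1.23 and 1.11). At 2-fold itself the count is fragile: the log2 ratios were 1.27, 0.77, 1.21 and 1.64 for Kcnq5, 1.00, 1.30, 1.37 and 1.00 for Kcnj6 (just under 1 at E19 and P21) and 1.08, 0.98, 1.47 and 0.99 for Kcnh1. Without the P4 library the count was 2, as Kcnq5 joined.

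On the inhibitory side stood Kcnmb2, Kcnip1, Kcnip3, Kcnq3, Kcnn2 and Kcnc1. Kcnmb2, which makes the large-conductance channel inactivate, was at 293, 194, 163 and 109 CPM in excitatory and 521, 471, 552 and 423 CPM in inhibitory neurons, and the log2 ratio was -0.82, -1.26, -1.73 and -1.91. Kcnip1 was at 483, 394, 384 and 287 CPM in excitatory and 675, 658, 757 and 647 CPM in inhibitory neurons (log2 -0.48, -0.73, -0.97 and -1.16). In both genes the gap was wider at each later stage and the excitatory level was lower at each later stage, while the inhibitory levels had no such order. The other 4 differed by less, between -0.68 and -0.0073 on the log2 scale.

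**Figure D3:**
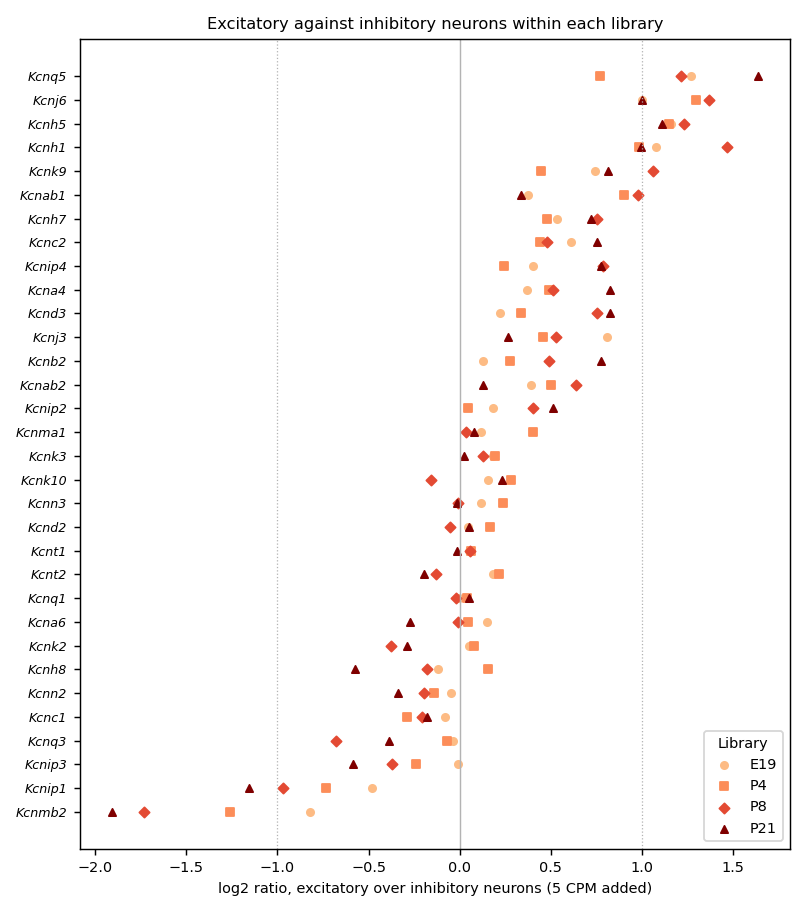
log2 ratio of CPM in excitatory over inhibitory neurons (5 CPM added) in each of the 4 libraries, for 32 of the 35 members with 20 CPM or more in the higher class of every library, ordered by their mean. Kcnh5 lies beyond 1 in all 4 libraries, and the ratios of Kcnmb2 and Kcnip1 lie further left at each later stage.

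Within each class some members stood out in single subtypes. A subtype was compared with all other nuclei of its class in each library where it had 20 nuclei or more; among 849 pairs of a member and a subtype, 7 were 2-fold higher in every such library (0.565% of all gene and subtype pairs) and 29 were 2-fold lower (1.18%). The higher pairs fell on 5 members. Subtypes were drawn from the same expression values, and these pairs are a description.

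Kcnd3 (chr3:105452330-105674002, plus strand) marked 1 excitatory and 1 inhibitory subtype at every age. In EN12 (22 to 59 nuclei per library) it stood at 2125, 2766, 3648 and 3239 CPM at E19, P4, P8 and P21, against 324, 332, 310.2 and 328 CPM in the other excitatory neurons. In IN4 (71 to 105 nuclei) it stood at 1199, 1208, 1149 and 1038 CPM, against 248, 263, 268 and 241 CPM in the other inhibitory neurons. It was 2-fold lower than the rest of the class in EN5 and IN3, the latter at 86.1, 114, 95.1 and 77.8 CPM. The Kcnd3os gene overlaps Kcnd3 on the other strand.

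EN12 was set apart by low members too. Kcnab1 there was at 5.16, 11.5, 13.1 and 13.1 CPM, against 112, 156, 203 and 263 CPM in the other excitatory neurons, Kcnj3 at 20.6, 26.8, 44.3 and 102 CPM and Kcnmb2 at 92.9, 34.4, 36.2 and 12.2 CPM. Kcnab1 was highest in EN5 (41 to 103 nuclei), at 575, 593, 647 and 1194 CPM against 98.00, 137, 135 and 162 CPM in the rest, and EN5 in turn was low in Kcnip1, at 66.2, 84.5, 22.3 and 29.4 CPM against 493, 404, 426 and 309 CPM. Kcnab1 was also low in EN13 and IN11.

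IN10 (25 to 68 nuclei) combined 2 high members. Kcnip4 stood there at 5536, 6607, 8133 and 14462 CPM against 2028, 3076, 3450.2 and 4389 CPM in the other inhibitory neurons, and Kcnmb2 at 1403, 939, 1156 and 1003 CPM against 490.1, 457, 517 and 399 CPM. IN9 was the low subtype for Kcnip4, at 389.7, 1342, 1556 and 1456 CPM. Among excitatory subtypes Kcnip4 was already high in EN9 at E19, at 12418, 14842, 13692 and 13123 CPM over the 4 stages, and in EN12 it went from 4699 to 25892 CPM; neither subtype was 2-fold above the rest in every library. Kcnmb2 was also high in EN10, at 578, 510.4, 633 and 391 CPM against 285, 183, 145 and 98.4 CPM, and low in EN4, EN6 and EN12.

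EN6 and EN7 each had 5 low members, of 35 and 38 tested, and were also the subtypes with the most 2-fold lower genes of all kinds (140 of 6146 and 168 of 7046). In EN6 (30 to 101 nuclei) these were Kcnmb2, Kcnj3, Kcnt2, Kcnip3 and Kcnh1. Its Kcnj3 stood at 14.9, 12.05, 26.03 and 130.2 CPM against 153, 142, 163 and 341 CPM, so that it was higher at P21 there too. In EN7 they were Kcnj3, Kcnh5, Kcnip1, Kcnk9 and Kcnh1, beside high Kcnj6, but only its E19 and P4 nuclei (33 and 191) could be used, since P8 and P21 held 1 nucleus each. Kcnj3 was thus 2-fold low in EN6, EN7, EN12 and IN7. Without the E19 library the number of 2-fold higher pairs was 17, and without the P21 library 11. The share of all gene and subtype pairs is not given for these runs, so these numbers cannot be set against it.

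**Figure D4:**
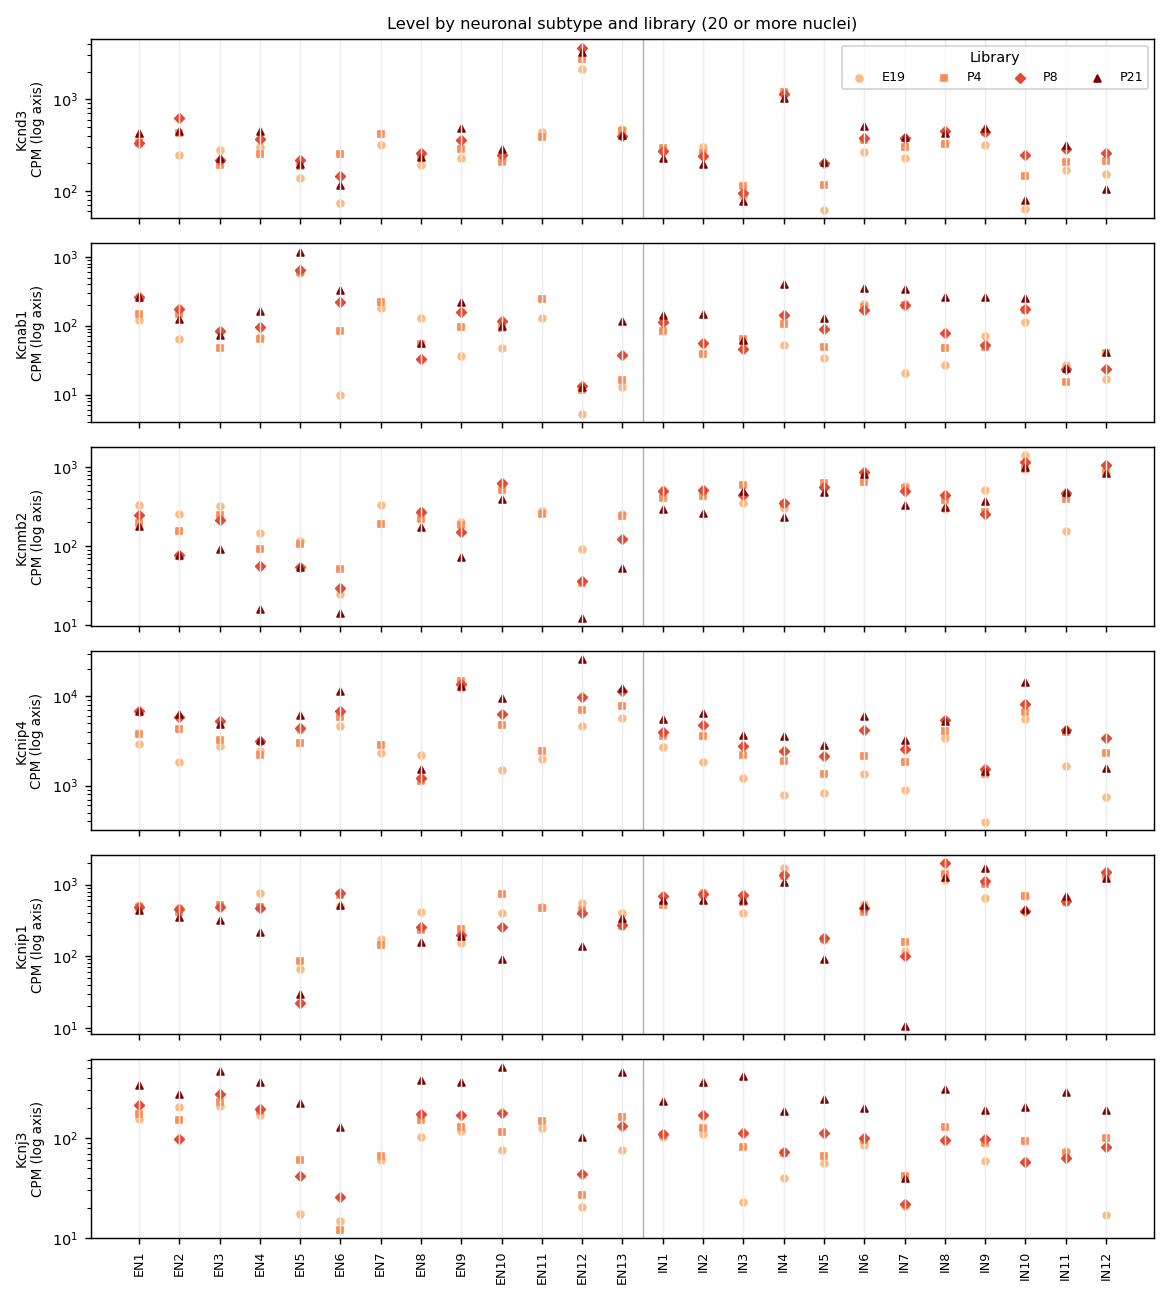
CPM (log axis) of 6 members in each excitatory (EN1 to EN13) and inhibitory (IN1 to IN12) subtype; each point is 1 library with 20 nuclei or more of the subtype. Kcnd3 stands highest in EN12 and IN4, Kcnab1 in EN5, and Kcnip1 is low in EN5 and IN7 in every library.

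Outside neurons, each class had 1 to 4 members at least 2-fold above the neuronal level and more of them 2-fold below it. In all libraries with 20 nuclei or more of the class, 3 of 36 tested members were 2-fold higher in astrocytes than in neurons (9.55% of all genes) and 16 lower (10.5%), 2 of 34 were higher in the oligodendrocyte lineage (3.61%) and 14 lower (7.13%), and 4 of 34 higher in vascular leptomeningeal cells (13.6%) and 21 lower (14.4%). In microglia 2 of 36 were higher (18%) and 22 lower (14.4%), in the nuclei labelled epithelial 1 of 36 higher (17%) and 25 lower (17.2%), and in dividing cells 3 of 37 higher (11.2%) and 11 lower (8.5%). Neuronal RNA was present in all of these classes: Rbfox3, Snap25 and Syt1 summed to 95.5 to 666 CPM there, against 1728 to 3542 CPM in neurons. The part of neuronal RNA in the low levels of neuronal members was not tested.

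Kcnj10, the inward rectifier of glia that takes up potassium, was the clearest astrocyte member. It lies at chr1:172341210-172374085, plus strand, and stood at 101, 87.1, 106 and 481 CPM in astrocytes at E19, P4, P8 and P21, against 0.97, 0.99, 1.77 and 4.98 CPM in neurons. At P21 there were 14.2 UMIs of Kcnj10 per 100 UMIs of the astrocyte transporter Slc1a2 in astrocytes, 10.6 in excitatory and 9.87 in inhibitory neurons. The part of astrocyte RNA in the neuronal level was not tested. Its partner Kcnj16 was at 6.48, 7.92, 4.84 and 51.05 CPM in astrocytes. Both were level until P8 and stood several-fold higher at P21. The same held within protoplasmic astrocytes, where Kcnj10 was at 117, 102, 116 and 522 CPM. In fibrous astrocytes Kcnj10 was at 41.99, 35.5, 59.03 and 225 CPM. Kcnj16 was at 15.7, 13.3, 13.6 and 26.5 CPM there, on 3 to 6 UMIs. Its intervals at E19 (3.25 to 46.0 CPM) and P21 (9.71 to 57.6 CPM) overlapped.

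In astrocytes 11 of 36 members were 2-fold higher at P21 than at E19 (8.6% of all genes) and 9 lower (18.2%). Beside Kcnj10 (log2 2.19) and Kcnj16 (2.29), the higher ones included the two-pore-domain channel Kcnk1, at 3.24, 3.96, 7.26 and 75.03 CPM, Kcnn2 at 182, 151, 224 and 608 CPM and Kcnma1 at 165, 399, 459 and 666 CPM. The modifier Kcns3 had 0 UMIs at E19 and 28.9 CPM at P21, which is at least 8.92-fold higher, taking 3 counts as the limit for the E19 astrocytes. The rest of the higher ones were Kcnt1 (log2 2.68), Kcna2 (2.37), Kcnj3 (1.82), Kcnip4 (1.32) and Kcnab1 (1.11). Of these, Kcnt1 was also 2-fold higher at P21 in inhibitory neurons and the others in both neuron classes. For Kcnj3 the astrocyte subtypes differed. In protoplasmic astrocytes it was at 19.03 CPM at E19 and 34.3 CPM at P21, below 2-fold (log2 0.71). In fibrous astrocytes it was at 15.7 and 344 CPM, on 3 and 78 UMIs. The lower ones included Kcnd3, at 497, 523, 362 and 111 CPM, Kcnmb4 at 43.2, 42.6, 18.5 and 1.85 CPM and Kcnj6 at 61.5, 87.1, 133 and 4.31 CPM, the last with its highest value at P8. Astrocytes at P21 also held 79.3 CPM of Mbp, against 24.8 CPM at E19. Kcnd2 was abundant in astrocytes, at 3879, 4513, 5222 and 4129 CPM, above the neurons in every library but not 2-fold in all. This held for protoplasmic astrocytes, at 4439.6, 5594, 6000.0 and 4583 CPM, while fibrous astrocytes held 1716, 753, 1616 and 1327 CPM, below the 2359.7, 2688, 2656 and 2423 CPM of neurons at each stage. Kcnip3 was another member above neurons, at 226, 366, 356 and 394 CPM.

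The oligodendrocyte lineage split by maturity. From P4 to P21, 3 of 35 members were 2-fold higher (Kcna1, Kcnk13 and Kcnj10; 12.4% of all genes) and 22 lower (26.9%), but the makeup of the class differed: myelinating oligodendrocytes were 187 of its 306 nuclei at P21 and 0 of 54 at P4. Within the P21 library, 3 of 35 members were 2-fold higher in myelinating nuclei than in the 64 precursor nuclei (OPC; 15% of all genes) and 28 lower (24.9%); this comparison was chosen after the data were seen. Kcna1 stood at 36.7 CPM in OPC and 319.7 CPM in myelinating nuclei, the two-pore-domain channel Kcnk13 at 53.4 and 299.9 CPM, and Kcna6, another low-threshold pore, at 63.4 and 149.9 CPM. In the other direction, Kcnd2 stood at 4100.4 and 189 CPM, Kcnip3 at 1145 and 5.74 CPM, and Kcnd3 at 574 and 16.6 CPM. Kcnj10 and Kcnq3 differed by less than 2-fold, at 86.8 and 105 CPM and at 718 and 640.0 CPM. Among OPC alone, Kcnd2 was at 6946, 5397, 5597 and 4100.4 CPM and Kcnip3 at 556, 612, 857 and 1145 CPM over the 4 stages, so the pair stayed high in precursors at P21.

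Vascular leptomeningeal cells, the fibroblasts of the brain's coverings and vessels, were high in Kcnk2 and Kcnt2 at every age. Kcnk2 stood at 741, 715, 787 and 780.4 CPM, against 159, 134, 121 and 82.98 CPM in neurons, and Kcnt2, a sodium-activated pore, at 746, 519.8, 744 and 684 CPM, against 179, 223, 223 and 128 CPM. The inward rectifier Kcnj13 was at 36.4, 54.8, 54.02 and 41.4 CPM and below 1 CPM in neurons, but overlaps a neighbour, Gigyf2, on the other strand. These nuclei also held astrocyte markers, which summed to 1437 to 3151 CPM, and their part in these levels was not tested. From P4 to P21, 1 of 25 members was higher in these cells (Kcna2; 4.21% of all genes) and 3 lower (Kcnq1, Kcnj3 and Kcnn3; 11.9%).

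Microglia, the immune cells of the brain, held Kcnk13 at 262, 342 and 234 CPM at P4, P8 and P21 (19, 26 and 26 UMIs), against 11.2, 12.2 and 7.22 CPM in neurons. This channel keeps their resting potential. Kcnk6 was at 55.1, 26.3 and 72.03 CPM in microglia, on 4, 2 and 8 UMIs, and below 1 CPM in neurons in the same libraries. The nuclei labelled epithelial held Kcnk5, a pore sensitive to alkaline pH, at 274 and 186 CPM at P8 and P21 (57 and 51 UMIs), against 0.25 and 0.15 CPM in neurons. The same nuclei held Kcnb2 at 1137 and 1888 CPM and Kcnq5 at 1319.5 and 113 CPM, where neurons held 1434 and 1258 CPM and 739.6 and 546 CPM, and Kcnq5 was higher at P8 than at P21. Endothelial nuclei reached 20 only at P4 (22 nuclei), where Kcnj8, the inward rectifier of vascular mural cells, stood at 148 CPM (103 to 207, 34 UMIs) beside the mural markers given above. Dividing cells held Kcnj10 at 84.9, 61.6 and 56.4 CPM, Kcnip3 at 358, 316 and 347 CPM and Kcnmb4 at 61.3, 61.6 and 86.8 CPM at E19, P4 and P8, and like OPC and protoplasmic astrocytes were rich in Kcnd2, at 5092, 5071 and 6074 CPM.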

How the data were processed

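Superior colliculus nuclei from 4 stages were profiled with a 10x Genomics 3′ kit, and reads were aligned with Cell Ranger 3.0.2 to a pre-mRNA reference of mm10, per the labels' protocols and the submitters' processing notes, so intronic reads count. The authors deposited whole UMI counts per gene and nucleus with their classes and subtypes; per the file headers the metadata also give the percent of mitochondrial UMIs, which was at most 5% in every nucleus. How doublets and free RNA were treated is not given in the sources used here, and neither was corrected.

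Counts were summed by class or subtype and library and scaled to 1000000 UMIs (CPM), with Python 3.11.15, pandas 2.3.3, numpy 2.4.6 and scipy 1.17.1. Library totals ranged from 19277512 to 31325079 UMIs. A difference was called past 2-fold at a log2 ratio of at least 1 or at most -1 with 5 CPM added, where the higher value reached 20 CPM. Classes and subtypes entered a library at 20 nuclei, and stage comparisons outside neurons at 50 nuclei. With 1 library per stage no test was possible. The calls from E19 to P21 in excitatory and inhibitory neurons were tried first on data simulated with counting error only. The other kinds of call were not tried in this way. The alternatives were pseudocounts of 1 and 20 CPM, no minimum, median-of-ratios scaling, equal weights for subtypes or nuclei, thinning to 2300 UMIs per nucleus, and leaving out a library. Genes were matched by identifier to GENCODE M21 (GRCm38), with positions counted from 1. The rule for named members took, up to a limit, those past 2-fold by stage, between neuron classes, in a subtype (2 each) or in another class (4 each), the leading member of each family, and a list of well-known members; it gave 42 members. Other members given with values were chosen after their values were seen. Members, lists and rules were chosen with earlier results of these data known. The counts cover all members, but results for a few genes and sequences are not reported here.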

Additional observations from a re-analysis of the deposited data

Results flagged for a closer look

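From E19 to P21, Kcnb2, Kcnq5 and Kcnq3 went in different directions in excitatory and inhibitory neurons. Their counting intervals did not overlap between the stages in either class. How many of all genes did so is not given here, and at high UMI counts such intervals separate at small ratios. The log2 ratio of P21 over E19 of Kcnb2, a slow delayed rectifier, was 0.13 in excitatory and -0.51 in inhibitory neurons. For Kcnq5, a pore of the M-type current, it was 0.15 and -0.22. For Kcnq3, which joins Kcnq5 in such channels, the order was the opposite, at -0.26 in excitatory and 0.094 in inhibitory neurons. Each class has 1 library per stage, so the difference between the classes was not tested, and none of the 6 ratios reached 2-fold.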

How the results depend on the processing

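No paired analysis was possible because each stage is 1 library. No ratio of P21 over E19 of a member past 2-fold changed sign in either neuron class under any alternative run. In excitatory neurons, adding 20 CPM in place of 5 left 6 of the 10 higher members (without Kcnj9, Kcnab2, Kcnc1 and Kcnab3) and 3 of the 5 lower ones (without Kcnk2 and Kcnk10), and median-of-ratios scaling likewise left 3 lower. Weighting subtypes alike also took Kcnk2 and Kcnk10 under 2-fold, and 4 members were lower with it. In inhibitory neurons adding 20 CPM left 7 of 11 higher members (without Kcnt1, Kcnab2, Kcnab3 and Kcnk12) and 3 of 4 lower ones (without Kcnmb4). Thinning to 2300 UMIs per nucleus took Kcnj3, Kcnab2 and Kcnk2 in excitatory and Kcnc1 in inhibitory neurons under 2-fold. With no minimum, 7 members were higher in the oligodendrocyte lineage, and Kcns1, Kcnn1, Kcnf1 and Kcng2 joined the lower ones there. In vascular leptomeningeal cells 8 were higher and 7 lower with no minimum. The members added in this way were below 20 CPM at both stages. In vascular leptomeningeal cells, adding 1 CPM gave 2 higher, and adding 20 CPM gave 0 higher and 1 lower. The number of members at least 2-fold higher in excitatory than inhibitory neurons in every library was 3 with 1 CPM added, 0 with 20 CPM, 3 with median-of-ratios scaling, 2 after thinning and 1 to 2 when a library was left out. On the inhibitory side it was 1 with subtypes weighted alike and 0 to 1 when a library was left out, with 1 without the E19 library. Higher pairs of member and subtype numbered 9 to 17 when a library was left out. No share over all genes or gene pairs is given beside the counts of these alternative runs. The cause of the changes in these counts was not tested.

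The summed level of all members depended on the weights. With subtypes weighted alike it was 15290 CPM at E19, 17794 at P4 and 21629 at P21 in excitatory neurons, and 11599, 13985, 16058 and 15737 CPM over the 4 stages in inhibitory neurons. With nuclei weighted alike it was 14079 at E19, 19218 at P8 and 20234 CPM at P21 in excitatory neurons, and 12033, 13761, 15219.9 and 15238 CPM in inhibitory neurons. Without Kcnip4 it was 11562, 12811, 13046 and 12441 CPM in excitatory and 10376, 11152, 11969 and 10708.5 CPM in inhibitory neurons.

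One library per stage, pooled animals, classes drawn from the same nuclei and uncorrected free RNA limit every difference. Intervals cover counting error only. Classes below 20 nuclei in a library were not compared, and differences of members with few UMIs, such as Kcnk6 in microglia, were poorly resolved at this depth.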
